A study of Mus musculus with 6 samples.

Results

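Astrocytes clear glutamate and potassium from the space around neurons, and the genes described here are 10 that serve this work or mark the cells that do it: the glutamate transporters Slc1a2 and Slc1a3, glutamine synthetase Glul, the gap junction protein Gja1, the water channel Aqp4, the intermediate filament protein Gfap, the metal-binding Mt3, the calcium-binding S100a16, and the receptors Gpr37l1 and Ednrb. All 10 were found by symbol among 24411 genes. They were chosen by name with the values of these same libraries known, so the differences between the genotypes given for them are a description and carry no test.

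RNA was sequenced from 6 libraries of mouse corpus callosum on postnatal day 4, from animals of the B6 strain. The sample titles of both groups also carry the word axon. The 3 WT libraries were set against 3 libraries of a Mettl14 conditional knockout (cKO), in which the target is one component of the methyltransferase that places m6A on RNA. The labels name no Cre line, so the cells meant to lose Mettl14 are not stated, and they do not say that each library is 1 animal, so p-values measure the spread between these libraries. Mettl14 itself was counted 11, 8 and 5 times in WT against 2, 7 and 2 times in cKO, so its loss cannot be judged at this depth. Counts of Xist came from cKO libraries alone and those of the Y-linked Ddx3y, Eif2s3y, Kdm5d and Uty from WT libraries alone, so sex and genotype cannot be told apart.

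Slc1a3 and Slc1a2 carry glutamate into the astrocyte, where Glul turns it into glutamine that returns to neurons. Gja1 joins neighbouring astrocytes into a network, and Aqp4 lets water through the membrane that faces blood vessels. In the first days after birth astrocytes of the white matter are young: Slc1a3 is already made by radial glia, the stem cells from which astrocytes arise, whereas Slc1a2 and Aqp4 are known to rise later as astrocytes mature. Several of these genes are shared with radial glia or oligodendrocyte precursors. In bulk tissue, fewer cells of a type and less RNA per cell cannot be told apart.

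Depth was 670462 to 1268430 expected counts per library, and the 10 genes took 0.65% to 0.776% of them in WT and 0.157% to 0.209% in cKO. On the TMM-scaled CPM scale (library-scaled counts), the 3 counts allowed by a count of 0 come to between 2.41 and 4.24 CPM. The replicate 2 libraries were the deepest of their groups and had shorter fragments, 304.3 and 292.7 bases on average against 332.4 to 350.5. Genes with few exons also dropped out unevenly: of 456 genes with 1 to 3 exons and at least 50 CPM in some library, the share with 0 or 1 count was 52.0%, 20.8% and 47.6% in WT and 31.6%, 10.1% and 44.7% in cKO. Among 4435 genes with more exons the share was 1.49% to 6.07%. Gja1 and Gpr37l1 have 2 exons, Mt3 and S100a16 have 3, and the others have 7 to 11.

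The label astrocyte was checked on other defining genes. In WT, Aldh1l1, an astrocyte folate enzyme, had 149, 472 and 132 counts and Aldoc, a glycolytic enzyme, 678, 928 and 632. S100b had 5, 3 and 7 counts and Sox9, a glial transcription factor, 3, 0 and 3. Both have 3 exons, and the part of few-exon dropout in their counts was not tested. Aqp4 lay just above the limit that a count of 0 allows. Aldh1l1 and Aldoc were thus well counted in WT, while 3 usual astrocyte markers, S100b, Sox9 and Aqp4, were barely counted. Whether astrocytes or radial glia gave these counts was not tested.

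The sequences before 3 transcription starts are shown for genes whose cKO libraries differ widely among themselves: Slc1a2 at the start to which its transcripts in cKO were assigned, Slc1a3 with uneven cKO levels, and Gfap with 1 library at the WT level. Each is the 250 bases before the start, 5′ to 3′ on the gene's strand, from RefSeq on GRCm38.p6. Capitals mark TTCNNNGAA, the letters read by STAT factors, and TTGGC, part of the site of NFI factors, on either strand.
Slc1a2 (chr2:102706188-102706437, plus strand): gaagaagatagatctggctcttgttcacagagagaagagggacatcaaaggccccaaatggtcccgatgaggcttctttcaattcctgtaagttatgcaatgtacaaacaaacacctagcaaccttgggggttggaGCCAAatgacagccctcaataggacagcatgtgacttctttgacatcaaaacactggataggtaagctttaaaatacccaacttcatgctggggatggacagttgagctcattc
Slc1a3 (chr15:8710808-8711057, minus strand): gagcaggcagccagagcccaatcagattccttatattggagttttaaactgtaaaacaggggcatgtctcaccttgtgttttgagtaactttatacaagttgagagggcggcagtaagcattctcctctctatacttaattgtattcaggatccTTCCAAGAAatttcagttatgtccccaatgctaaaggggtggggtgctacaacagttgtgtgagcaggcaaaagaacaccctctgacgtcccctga
Gfap (chr11:102897201-102897450, minus strand): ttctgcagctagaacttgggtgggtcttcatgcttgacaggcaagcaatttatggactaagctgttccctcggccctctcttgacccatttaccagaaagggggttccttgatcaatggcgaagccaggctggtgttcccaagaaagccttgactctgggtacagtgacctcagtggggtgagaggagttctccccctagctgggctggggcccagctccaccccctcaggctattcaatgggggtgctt
Windows were listed for 9 of the 10 genes, 10 in all. TTCNNNGAA was in 1 of the 10, that of Slc1a3, and in 7.02% of 32851 windows of the same length over all genes. TTGGC was in 4 of the 10 (Slc1a2, Glul, Ednrb and 1 of 2 for S100a16) and in 41.51% of all, ACAAT, the core read by SOX factors, in 3 and in 27.66%, and the TATA box TATAAA in 1 and in 12.37%. The Gfap window held none of the 4. It adjoins the start of the 2600-base transcript, at 102897200. The 2717-base transcript, which took most Gfap counts, starts at 102897131. A match says only that these letters are there, and no match only that they are not in this window.

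Levels per length in WT set the starting point. In TPM, the abundance of transcripts scaled to their length, Mt3 stood first with 2530, 3512 and 2905 in WT replicates 1 to 3. The Mt3 transcript has only 538 bases, against mean fragments of 304.3 to 338.8 bases in WT. The effect of this on its TPM was not tested. Glul had 697, 694 and 753, Gfap 536, 627 and 663, and Slc1a3 771, 498 and 326. Slc1a2 was the steadiest, with 214, 209 and 201. Between Slc1a3 and Slc1a2 came S100a16 at 304 ± 93.4 (SD, n = 3) and Gpr37l1 at 249.8 ± 42.3 TPM, and below Slc1a2 came Gja1 at 108 ± 89.2, Ednrb at 88.6 ± 42.5 and Aqp4 at 1.51 ± 0.403 TPM. Ranges over the WT libraries overlapped between each neighbour in the order from Gfap down to Ednrb. They did not overlap between Mt3 and Glul, Glul and Gfap, or Ednrb and Aqp4. Of the glutamate transporters, Slc1a3 was 3.61, 2.38 and 1.62 times Slc1a2 per length in WT and 3.57, 1.26 and 1.93 times in cKO. On this scale Slc1a3 led in each library. The Slc1a2 value of cKO replicate 3 rests on 11 counts, all assigned to its 2127-base transcript. In CPM, which is not scaled to length, Slc1a2 was the higher in WT replicates 2 and 3 and in cKO replicate 2.

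**Figure D1:**
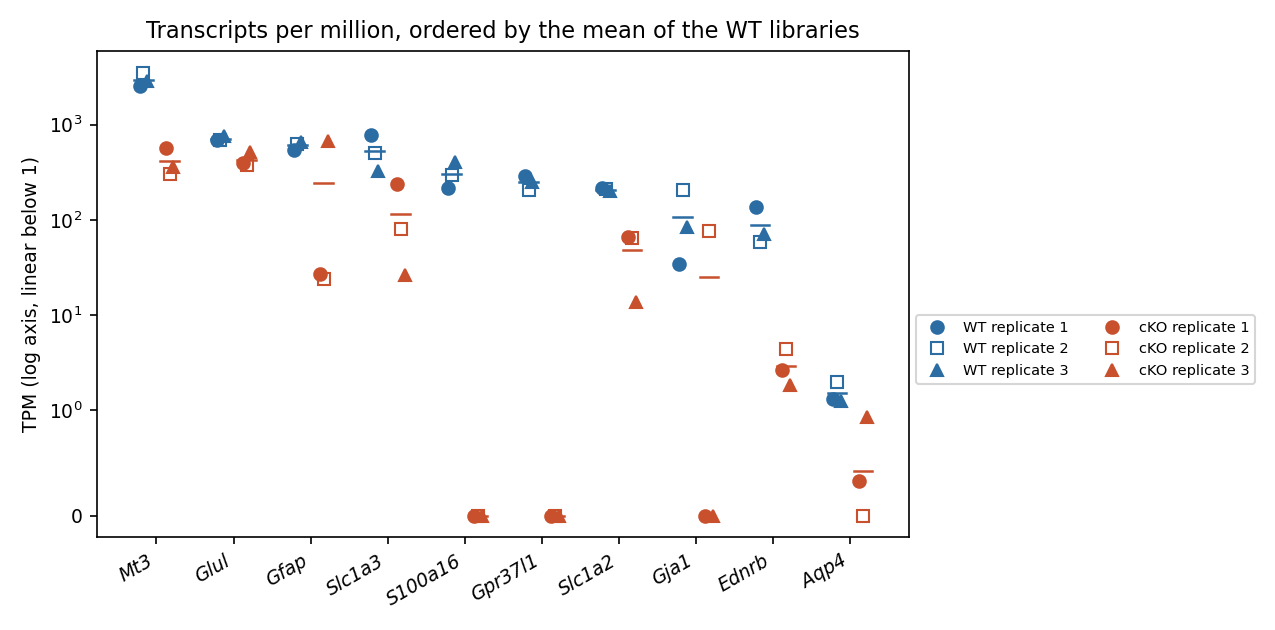
TPM on a log axis that is linear below 1, for each gene in the order of its WT mean; blue points are WT libraries, red points cKO libraries, shapes are replicate numbers and short bars are group means. Mt3 leads in WT, the WT points of Gfap to Ednrb overlap with their neighbours, and Aqp4 lies near 1 TPM.

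Between the genotypes, each of the 10 genes had a lower group mean in cKO, and the size and evenness of the difference varied widely among them. In 7 of the 9 tested genes each cKO library lay below each WT library, as it did in Aqp4, which was below the filter; the exceptions were Gfap and Gja1. Of all 5918 genes tested, 9.45% had groups apart in this direction. In the edgeR quasi-likelihood fit over all genes, Ednrb, Gpr37l1, S100a16 and Mt3 had an adjusted p below 0.05, 4 of the 9, against 0.422% of all genes called lower. These same values chose the genes, so nothing is read from either count. With 1 library left out at a time, 0 of the 9 passed without WT replicates 1, 2 or 3 or cKO replicates 1 or 2 (edgeR), where 0%, 0.125%, 0%, 0% and 0.0623% of all genes were called lower; 5 or 6 of the 9 still had an unadjusted p below 0.05, beside 6 of the 9 and 5.41% of all genes in the full fit. Without cKO replicate 3 the 3 that passed were Gfap, Slc1a2 and Gpr37l1, against 0.21% of all genes, and DESeq2 on all 6 libraries called 5, against 3.06%. The median fitted log2 fold change of the 9 was −2.06, beside 0.07 over all genes tested.

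**Figure D2:**
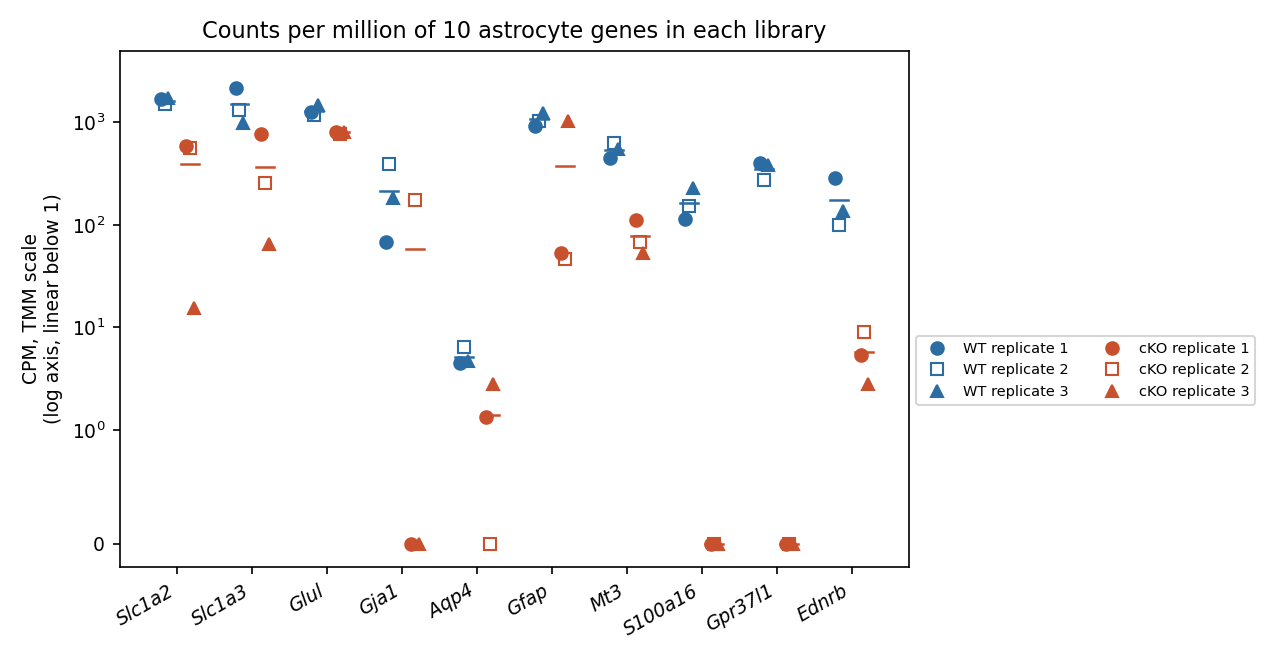
CPM on a log axis that is linear below 1, for each gene in each library, grouped by role from transporters to receptors; colours, shapes and bars are as in the plot of TPM. The Glul points of cKO lie close together, Gfap has 1 cKO point at the WT level, Gja1 has 2 cKO points at 0, and S100a16 and Gpr37l1 have all cKO points at 0.

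The glutamate transporters were lower in each cKO library, and most of all in replicate 3. Slc1a2 (chromosome 2, 102658239 to 102790784, plus strand, GRCm38) had 1677, 1504 and 1718 CPM in WT and 594, 562 and 15.6 in cKO. The WT libraries differed by 1.14 times from lowest to highest and the cKO libraries by 38.2 times. Its fitted log2 fold change, cKO relative to WT, was −2.06 (SE 1.03). The replicate 3 value rests on 11 counts, with a 95% counting interval of 5.49 to 19.7 counts.

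Slc1a3 (chromosome 15, 8634124 to 8710807, minus strand) had 2169, 1329 and 998 CPM in WT and 769, 259 and 65.1 in cKO. The groups do not overlap, yet the highest cKO library was closer to the lowest WT library than to the lowest of its own group. The log2 fold change was −2.04 (SE 0.83). Across all tested genes 6.56% had cKO replicate 3 at least 5-fold below both other cKO libraries, and Slc1a2 was the 1 such gene among the 9 tested.

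Transcripts of Slc1a2 added a detail that the choice of genes did not use. The files list 3: one of 11571 bases begins at an upstream first exon (102658659 to 102659301), and those of 10998 and 2127 bases begin 47779 bases further on (102706438 to 102706483). The upstream form held 25.1%, 8.96% and 22.9% of the gene's TPM in WT and 0% in each cKO library. In cKO replicates 1 and 2 all 442 and 561 counts went to the 10998-base form, and in replicate 3 all 11 counts went to the 2127-base form, which ends earlier. The groups do not overlap, but 3 libraries against 3 cannot go below p = 0.1 in an exact two-sided permutation test. The forms share most of their exons, so RSEM divides their reads by estimate, and 11 counts say little of the forms in cKO replicate 3.

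**Figure D3:**
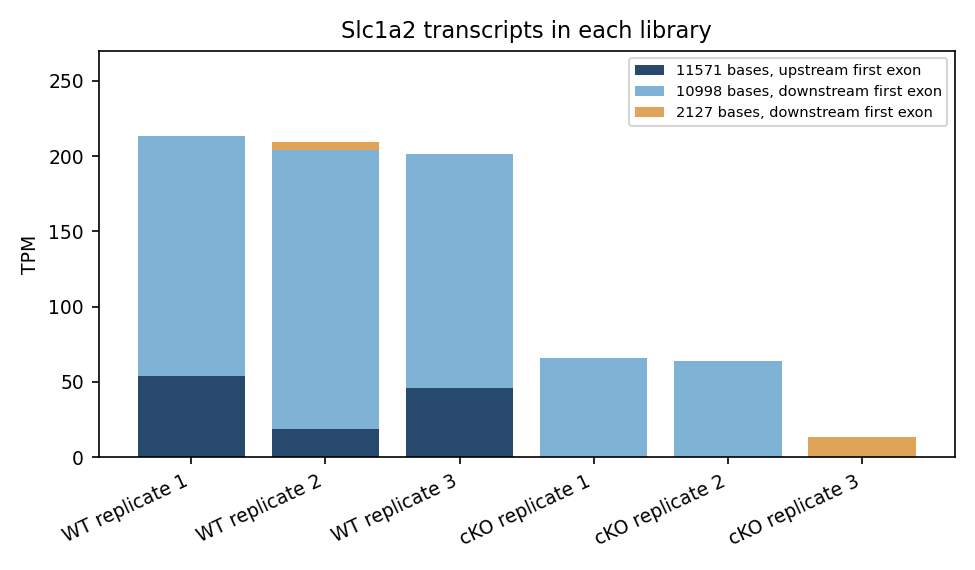
TPM of Slc1a2 in each library as stacked bars, split by the 3 transcripts in the files. The dark segment of the upstream first exon appears in the WT bars alone, at 53.7, 18.8 and 46.0 TPM, and the cKO bars are shorter.

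Glul, glutamine synthetase (chromosome 1, 153899929 to 153909723, plus strand), had the smallest difference of the 9 tested genes and the most even cKO libraries. It stood at 1252, 1187 and 1471 CPM in WT and at 815, 775 and 808 in cKO, so the groups do not overlap. The log2 fold change was −0.71 (SE 0.20). Per length, Glul was 0.904, 1.39 and 2.31 times Slc1a3 in WT and 1.66, 4.65 and 19.5 times in cKO. The level of the enzyme relative to the transporter thus differed widely among the 3 cKO libraries.

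Gja1, the main connexin of astrocytes (chromosome 10, 56377300 to 56390419, plus strand, 2 exons), was highest in the replicate 2 library of each genotype. So were 22.1% of the 5918 tested genes. The CPM of Gja1 was 68.5, 397 and 183 in WT and 0, 175 and 0 in cKO. The replicate 2 libraries had the fewest dropouts among genes of few exons, and Gja1 was higher in cKO replicate 2 than in WT replicate 1. The part of that dropout in the Gja1 values was not tested. The log2 fold change was −1.88 (SE 1.94), and without cKO replicate 2 it was −10.6, with 0 counts left in cKO. Including Gja1, 6 of the 5918 tested genes had at most 1 count in cKO replicates 1 and 3 and at least 50 in cKO replicate 2, a criterion set after its values were seen.

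Aqp4, the water channel, was counted 4, 8 and 4 times in WT against 1, 0 and 2 times in cKO. It lay below the low-count filter and is not among the 5918 genes. It entered 2 alternatives, without a filter and with a CPM above 1 in 3 libraries, with log2 fold changes of −1.92 and −1.94, and passed in neither (edgeR adjusted p = 0.537 and 0.432). Pooled counts were 16 in WT and 3 in cKO. Scaled to library size with the TMM factors, the WT value was 4.36 times that of cKO, with a 95% counting interval of 1.25 to 23.4. Nearly all of its counts went to 1 of 8 listed transcripts, of 5082 bases.

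Gfap, the filament protein of astrocytes (chromosome 11, 102887336 to 102897200, minus strand, 9 exons), was split within the cKO group. It had 929, 1033 and 1248 CPM in WT and 53.8, 47.0 and 1031 in cKO. Replicates 1 and 2 of cKO lay far below WT, while replicate 3 lay inside the WT range of CPM. In TPM cKO replicate 3 stood at 682, a little above the WT values of 536 to 663. In counts the cKO libraries had 40, 47 and 729, with 95% counting intervals of 28.6 to 54.5, 34.5 to 62.5 and 677 to 784. The first 2 intervals lie far below the third. The log2 fold change was −1.50 (SE 1.15) over all libraries and −4.39 without cKO replicate 3.

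Gfap and the glutamate transporters thus went opposite ways in cKO replicate 3, where Slc1a2 and Slc1a3 were at their lowest. Per length, Gfap was 0.770, 0.903 and 0.880 times Glul in WT and 0.0685, 0.0630 and 1.33 times in cKO. Its 2 listed transcripts differ in the last exon and in the start, at 102897200 for the 2600-base form and 102897131 for the 2717-base form. The form of 2600 bases took 0.33%, 1.79% and 0.67% of the gene's TPM in WT and 2.15% in cKO replicate 3, with no count in the other cKO libraries, so the 2717-base form prevailed in each library.

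The 5 tested genes nearest to the Gfap pattern, by the mean absolute difference of centred log2 CPM over the 6 libraries, were Hopx, Klhl5, Nes, Spp1 and Plxnb3 among 5909 compared. Their differences were 0.56, 0.66, 0.70, 0.79 and 0.87, beside a median of 1.98 over all genes. Hopx, a radial glia and astrocyte gene, had 10.1, 69.1 and 64.0 CPM in WT and 0, 0 and 53.8 in cKO. Nes, a filament protein of neural stem cells, had 102, 194 and 519 in WT and 36.3, 9.01 and 223 in cKO. Spp1, the secreted protein osteopontin, had 309.99, 677 and 653 in WT and 12.1, 12.01 and 1966 in cKO. In Hopx, Klhl5, Nes and Spp1, as in Gfap, cKO replicate 3 was the highest cKO library by a wide margin; in Plxnb3 it was at 4.24 CPM, close to the 4.03 of replicate 1.

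**Figure D4:**
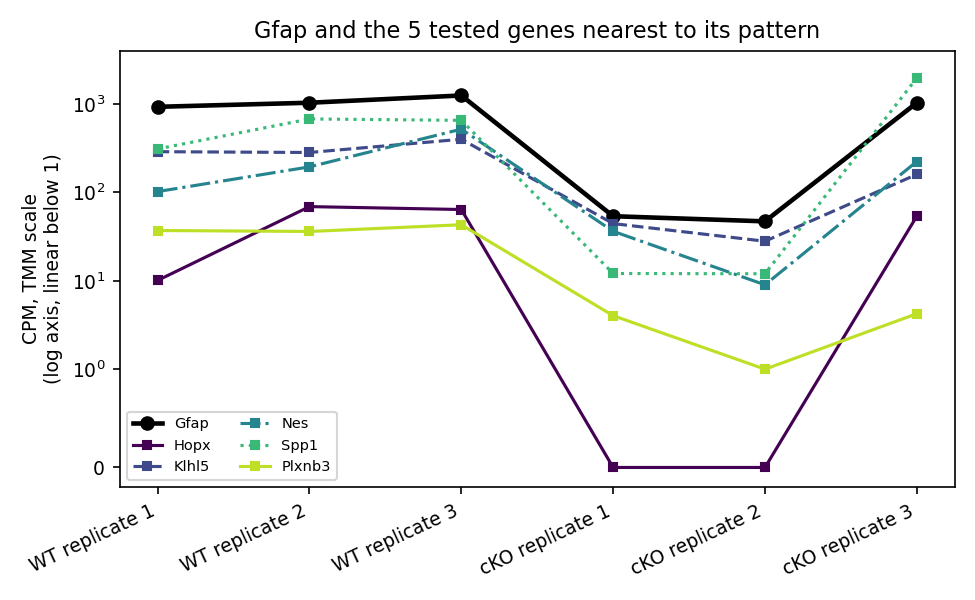
CPM on a log axis that is linear below 1, by library, for Gfap (black) and the 5 tested genes nearest to its pattern; lines join the values of 1 gene, and the order of replicates has no meaning. Gfap, Hopx, Klhl5, Nes and Spp1 dip in cKO replicates 1 and 2 and are higher in replicate 3.

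Genes known to rise in reactive astrocytes were scarce in all libraries. Of 14 on the list 2 were tested, Stat3 and Il6st, and 0 were called (edgeR; 0 also with DESeq2, and 0 had an unadjusted p below 0.05). Their summed level was 61.0 to 97.8 CPM in WT and 47.1, 24.0 and 104.7 in cKO. Replicate 3 was again the highest cKO library, at about the level of WT. Serpina3n was counted in the replicate 3 libraries alone, 2 times in WT and 5 times in cKO. Steap4, S1pr3, Hspb1, Cxcl10 and Socs3 had 0 in each library. Of these, S1pr3 and Socs3 have 2 exons and Hspb1 has 3, and the part of few-exon dropout was not tested.

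Mt3, a brain metallothionein that binds zinc and copper (chromosome 8, 94152607 to 94154148, plus strand), had 448, 634 and 549 CPM in WT and 113, 68.1 and 53.8 in cKO. The groups are far apart, and the cKO libraries differ by 2.10 times. The log2 fold change was −2.80 (SE 0.43). Its relatives were low: the counts of Mt1 were 9, 165 and 9 in WT against 7, 2 and 2 in cKO, and those of Mt2 were 3, 85 and 2 against 1, 1 and 0. Both have 3 exons, and for both WT replicate 2 alone was high.

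S100a16, a small calcium-binding protein (chromosome 3, 90537254 to 90543151, plus strand, 3 exons), was counted 101, 191 and 197 times in WT and never in cKO. That is 113, 153 and 229 CPM in WT, and at least 133-fold lower in cKO, taking 3 counts over the group as the limit. This limit covers counting error only. S100a1, another member of the S100 family, had the same direction, counted 94, 215 and 214 times in WT against 1, 0 and 3 times in cKO; it did not pass (edgeR adjusted p = 0.0633; log2 fold change −6.54, SE 1.10). S100a13 lay below the filter, its counts being 6, 74 and 84 in WT against 1, 2 and 0 in cKO.

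Gpr37l1, a glial receptor for which prosaposin has been proposed as a ligand (chromosome 1, 135160250 to 135167681, minus strand, 2 exons), was counted 361, 342 and 329 times in WT and never in cKO. It was at least 281-fold lower in cKO by the same limit. Both Gpr37l1 and S100a16 were at 0 in each cKO library. There 31.6%, 10.1% and 44.7% of genes with few exons had 0 or 1 count in replicates 1 to 3. The part of this dropout in the zeros of Gpr37l1 and S100a16 was not tested. Of 5918 tested genes 3, these and 1 more, had at least 50 counts in each WT library and 0 in each cKO library, a criterion set after the values were seen. Psap, which encodes prosaposin, was abundant, with 2324, 2119 and 2412 CPM in WT and 2013, 1956 and 1446 in cKO (log2 fold change −0.34, SE 0.19). The related receptor Gpr37, of 2 exons, had 0 counts in each library, and the part of few-exon dropout in this was not tested.

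Ednrb, the B receptor for endothelins (chromosome 14, 103814615 to 103844508, minus strand, 8 exons), had 284, 99.6 and 136 CPM in WT and 5.38, 9.01 and 2.83 in cKO. The cKO values rest on 4, 9 and 2 counts. The log2 fold change was −4.86 (SE 0.75). Of its 3 listed transcripts, the 2788-base form took 67.4% and 99.45% of the gene's TPM in WT replicates 1 and 2 and every count in WT replicate 3 and in cKO. The rest of WT replicate 1, 32.6%, was assigned to a 4005-base form with another 3′ end. The ligand genes Edn1, Edn2 and Edn3 had 0 counts in each library, and the receptor Ednra had 1 to 3 in WT and at most 1 in cKO.

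The other genes of these pathways were taken from 7 lists, likewise chosen with earlier results known. For comparison with the lists here and below, 46.13% of all genes tested had negative values. EdgeR called 0.422% of all genes lower and DESeq2 3.06%. Among 16 partners in potassium, water and junction handling 10 were tested, 9 had negative values and 1 was called lower, with a median of −1.93. Kcnj10, the potassium channel of astrocytes, had 326, 218 and 213 CPM in WT and 53.8, 59.1 and 84.9 in cKO without passing (−1.94, SE 0.46). Dag1, which anchors Aqp4 at vessels, was highest in both replicate 2 libraries: its counts were 4, 447 and 0 in WT and 64, 447 and 4 in cKO. The connexins Gjb6 and Gjb2 and the channel Kcnj16, with 2 or 3 exons each, had 0 counts in each library. The part of few-exon dropout in these zeros was not tested. DESeq2 called 5 of the 10 lower, and edgeR called 0 with WT replicate 1, WT replicate 3, cKO replicate 1 or cKO replicate 2 left out.

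Glutamate and glutamine handling outside the 10 genes had values in both directions. Of 16 genes 12 were tested, 7 had negative and 5 positive values (8 and 4 with upper-quartile scaling), and 0 were called by edgeR, 1 by DESeq2, while 3 had an unadjusted edgeR p below 0.05; the median was −0.22. Glud1, which breaks glutamate down, had 569, 449 and 362 CPM in WT and 192, 69.1 and 134 in cKO (−1.80, SE 0.48). Slc38a3, which exports glutamine from astrocytes, had 128, 393 and 137 in WT and 51.1, 177 and 39.6 in cKO (−1.29, SE 0.79).

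Of 20 genes of astrocyte identity 16 were tested, 14 had negative values and 2 were called lower by edgeR, Aldoc and the lipid carrier Apoe, beside 0.422% of all genes. The median was −1.56, 11 had an unadjusted edgeR p below 0.05, and DESeq2 called 9 lower and 1 higher. Aldoc fell by 4.59 on the log2 scale (SE 0.33, edgeR adjusted p = 0.00664) and Apoe fell by 1.57 (SE 0.16, edgeR adjusted p = 0.0147). Leaving out WT replicate 1, WT replicate 3 and cKO replicate 1 in turn gave edgeR adjusted p values of 0.0952, 0.0560 and 0.0833 for Aldoc and of 0.119, 0.116 and 0.1499 for Apoe, and leaving out cKO replicate 2 gave 0.0738 for Apoe. The 2 positive values belonged to Nfib and Nfix, transcription factors of glia that neurons also make: Nfix had 1550, 1712 and 1917 CPM in WT and 3410, 2223 and 4106 in cKO (0.91, SE 0.25), with groups that do not overlap, as 10.4% of all genes had in this direction. It did not pass with edgeR or limma and was called higher by DESeq2. Of 4 filament partners 2 were tested and 0 passed with edgeR, adjusted or not, or with DESeq2: Vim, vimentin, had 1313, 906 and 1315 CPM in WT and 713, 691 and 1228 in cKO, and again cKO replicate 3 was the highest of its group. Of the 12 metal-binding and S100 genes 2 were tested, S100a1 and Slc30a1, and of the 9 endothelin and prosaposin genes Psap and Ece1, with 0 calls in either list by edgeR; S100a1 alone had an unadjusted p below 0.05 and was called by DESeq2.

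**Figure D5:**
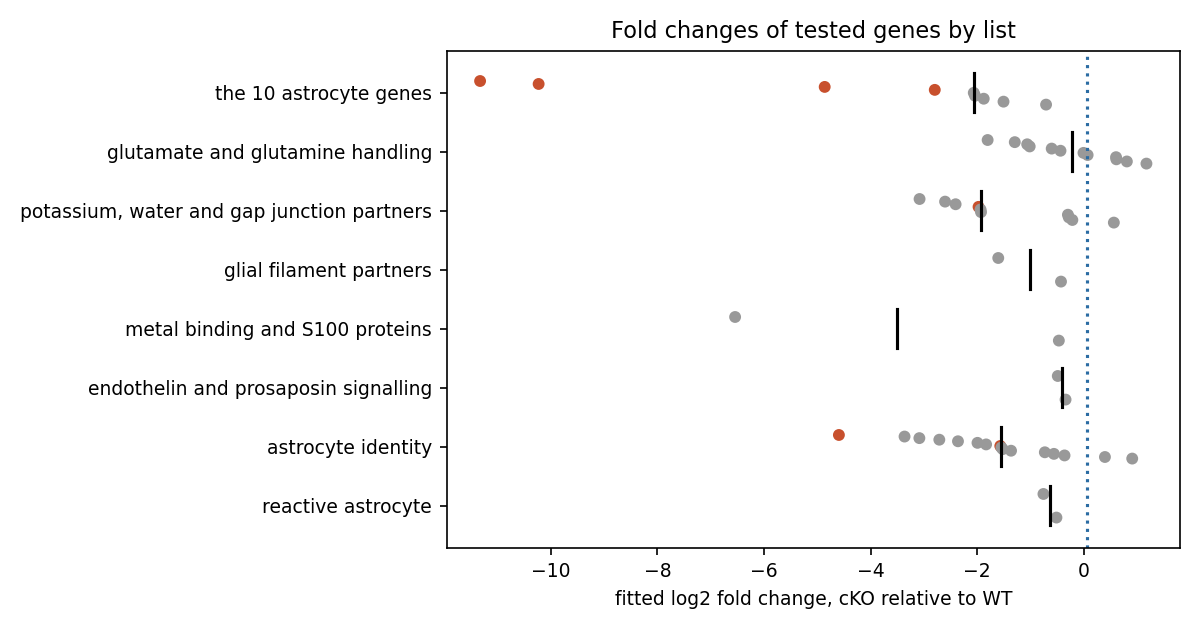
Fitted log2 fold change, cKO relative to WT, of each tested gene by list; red points had an adjusted p below 0.05, black bars are list medians and the dotted line is the median of all genes, 0.07. The 10 astrocyte genes (9 tested) and their potassium and water partners centre near −2, glutamate handling near 0; the 2 leftmost points, genes at 0 in cKO, depend on the fit's prior count.

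Markers of other cells differed between the groups too, and their part in the values above was not tested. Radial glia, which share Slc1a3 with astrocytes, had a summed level of 6480 to 8590 CPM over 10 markers in WT and 2204 to 2899 in cKO, and 1 of 7 tested, the lipid-binding Fabp7, was called lower by edgeR, beside 0.422% of all genes. With any 1 library left out, other filters, upper-quartile scaling or the batch term edgeR called 0 of these markers, with 5 of the 7 at an unadjusted p below 0.05 in all libraries, while DESeq2 called 5. Its CPM was 4776, 3226 and 4377 in WT and 1423, 1430 and 951 in cKO. Oligodendrocyte precursors had 2377 to 2901 CPM over 8 markers in WT and 972, 659 and 11.3 in cKO replicates 1 to 3, with 1 of 3 tested called lower by edgeR, the growth factor receptor Pdgfra, and 2 by DESeq2. Without WT replicate 1, WT replicate 3 and cKO replicate 1 in turn edgeR called 0 of the 3. Nearly all of the cKO sums came from Olig1, a gene of 1 exon, at 949, 626 and 0 CPM, while Pdgfra stood at 20.2, 31.0 and 11.3. Myelinating oligodendrocytes had 2536 to 4122 CPM over 10 markers in WT and 2.0 to 10.8 in cKO, and 6 of 6 tested were called lower by edgeR and by DESeq2, beside 0.422% and 3.06% of all genes. With 1 library left out edgeR called 0 of them when that library was WT replicate 1, WT replicate 3 or cKO replicate 1, 2 without cKO replicate 2 and 3 without WT replicate 2 or cKO replicate 3. Of the 10 markers 6 had 0 counts in cKO, but of these Mobp and Opalin were at 0 in WT as well and Mog was counted 1 time.

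Excitatory neurons had 441 to 986 CPM over 10 markers in WT and 5498 to 6345 in cKO. Of 9 tested, 6 had positive and 3 negative values. EdgeR called 1 higher, Neurod2, against 0.49% of all genes, and DESeq2 called 3. EdgeR called 0 without WT replicate 3 or cKO replicate 1 and 2 without WT replicate 2. Neurod2 and Neurod6, with 2 exons each, stood at 2653, 1998 and 2079 CPM and at 1233, 1251 and 1625 CPM in cKO. Neurod2 had 0 counts in each WT library, and the part of few-exon dropout was not tested. Endothelial markers stood at 1224 to 1304 CPM in WT and at 797, 766 and 266 in cKO. Most of these sums came from Bsg, at 1113, 1126 and 1134 CPM in WT and 744, 735 and 225 in cKO. Microglia markers stood at 217 to 691 CPM in WT and 130 to 433 in cKO. EdgeR made 0 calls among the 4 endothelial and 5 microglial genes tested. Of the endothelial genes DESeq2 called 1 and 3 had an unadjusted edgeR p below 0.05, of the microglial genes 0 and 0. Of the ependymal and choroid plexus markers 1, Ttr, was high in WT replicate 1, at 573 CPM of a summed 575, against 12.05 and 16.3 in the other WT libraries and 0, 22.02 and 11.3 in cKO. Kl, Folr1 and Foxj1, the last of 3 exons, were at 0 in all 6 libraries. Pial and meningeal markers overlapped, with 265 to 460 CPM in WT and 392 to 520 in cKO, highest in cKO replicate 3. Of the latter 2 lists 1 and 3 genes were tested, with 0 passing in edgeR, adjusted or not, or in DESeq2.

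The 5 tested genes nearest to the mean pattern of the 10 were 3110035E14Rik, Myrf, Enpp6, Kcnip3 and Lims2, with mean absolute differences of 0.29, 0.30, 0.32, 0.35 and 0.38 in centred log2 CPM over the 6 libraries, beside a median of 1.80 over 5909 genes. Myrf and Enpp6 are genes of oligodendrocytes: WT counts were 17 to 21 for Myrf and 12 to 26 for Enpp6, against 0 in cKO. 3110035E14Rik had 1240, 923 and 1186 CPM in WT and 152, 182 and 99.0 in cKO.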

How the data were processed

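RNA of 3 WT and 3 Mettl14 cKO libraries was measured, with group and replicate number from the titles. The callosum was cut by hand from frozen sections and poly(A) RNA bound to beads, per the labels' protocols. The kit marks no strand, so antisense reads are counted with the overlapping gene. The submitters' processing notes name STAR 2.7.10b, RSEM 1.3.3 and mm10, while the annotation used is not given in the sources used here. The authors deposited expected counts, which are estimated fragments per transcript per the file headers, and TPM, scaled to transcript length and library total. The length and other columns were, per the file headers, in bases and gave the fragment length.

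Gene values are the rounded sums of the expected counts of a gene's transcripts. edgeR 4.0.16 in R 4.3.3 (quasi-likelihood, TMM, filterByExpr with a minimum count of 10) was fitted over all 6 libraries with no covariate, with Benjamini-Hochberg adjustment over 5918 genes and a threshold of 0.05. SE is the absolute log2 fold change over the root of F and restates the p-value. Folds against groups at 0 used 3 counts over the group as the limit. Counting intervals are exact and, like the floors, cover counting error only. Positions and exon numbers come from RefSeq and GENCODE M21 tables of GRCm38, the assembly of mm10. Likeness used log2 CPM with a prior count of 2.

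The 10 genes, the lists, the tests and the alternatives were chosen with earlier results of these data known. Named besides the 10 are the called genes and the 3 most abundant tested genes of each pathway list, the 2 most abundant of each list of other cells and the 5 genes nearest in pattern; other names (Aldh1l1, S100b, Sox9, Mt1, Mt2, S100a13, Serpina3n, Steap4, S1pr3, Hspb1, Cxcl10, Socs3, Gpr37, Edn1, Edn2, Edn3, Ednra, Gjb6, Gjb2, Kcnj16) were chosen after their values were seen, and part of what this rule selects is not reported here. Tried as alternatives were DESeq2 1.42.0, upper-quartile and RLE scaling, 2 other filters, limma 3.58.1 on log2(TPM + 1) and log2(TPM + 0.1), the replicate number as a block, the replicate 2 libraries as a batch, and leaving out libraries. The fit was tested on simulated data.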

Additional observations from a re-analysis of the deposited data

How the results depend on the processing

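Over 16 alternatives each of the 9 tested genes kept a negative log2 fold change, 144 values in all. The genes were chosen with these values known and the alternatives refit the same libraries, so the constant sign is no test. The ranges were −2.78 to −1.49 for Slc1a2, −3.29 to −1.53 for Slc1a3, −4.39 to −0.97 for Gfap, −10.6 to −1.09 for Gja1, −0.99 to −0.62 for Glul and −3.20 to −2.57 for Mt3. For Ednrb the range was −5.61 to −4.32, for Gpr37l1 −11.6 to −7.96 and for S100a16 −11.5 to −8.20. Over all genes, 29 were called higher and 25 lower in cKO by edgeR, 12 and 10 without a filter or with CPM above 1 in 3 libraries, 11 and 8 with the replicate 2 libraries as a batch term, 0 and 0 without both of them (389 and 351 with unadjusted p below 0.05; edgeR alone was run on these 4 libraries), and 250 and 179 with DESeq2. Leaving out 1 library gave 0 to 28 higher and 0 to 14 lower. With the replicate block 1 gene was called higher and 0 lower (420 and 343 at an unadjusted p below 0.05), and 0 of the 9. Same-numbered libraries correlated in their deviations from the group means by 0.064, 0.462 and 0.162, so the numbers were not taken to pair them, and WT replicate 1 correlated best with cKO replicate 3. Of the 9 genes, 1 was called without a filter and 0 with the batch term (6 at an unadjusted p below 0.05). Upper-quartile scaling moved the median log2 fold change of all genes from 0.07 to −0.22; with it Apoe did not pass (edgeR adjusted p = 0.0992). S100a1 passed with upper-quartile scaling, DESeq2 and limma on log2(TPM + 1). The causes of these differences were not tested. Low counts limit Aqp4, Ednrb in cKO and the Slc1a2 forms in cKO replicate 3.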
